A study of Mus musculus with 8 samples.

Results

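The type I interferon response genes described here are genes whose transcription rises when interferon alpha or beta binds its receptor, among them antiviral effectors, sensors of foreign RNA and the transcription factors of the pathway itself. They were chosen by gene symbol from a list of 45, of which 44 matched a row among the 17644 gene symbols of the table. Guanylate-binding proteins, immunity-related GTPases and antigen presentation genes were left out of the list. The remaining symbol, Ifi27, matched no row under that name.

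Expression was measured by CAGE, a method that sequences short tags at the capped 5′ end of RNA and so counts transcripts where they start. All samples came from brains of male C57BL/6NCrSlc mice aged 11 weeks in which part of the motor cortex had been removed by aspiration, and the tissue bordering the cavity was taken with a margin of 1.0 mm. In the no-delay group (4 samples) the brain was removed directly after the lesion, and in the 1-week group (4 samples) 1 week after it, so both groups carry the lesion and the comparison is with a fresh one. The values are CPM, the tags of a gene scaled to the library's total of tags assigned to genes, and the libraries held 8278855 to 13998941 tags.

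Type I interferons bind a receptor made of IFNAR1 and IFNAR2, whose kinases JAK1 and TYK2 phosphorylate STAT proteins, among them STAT2. Together with IRF9 these form a complex that binds the interferon-stimulated response element in promoters and switches the response genes on. In the brain, microglia, astrocytes and endothelial cells are known to respond, and many response genes can also be induced by interferon gamma or directly by IRF3, IRF7 or IRF1.

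Each library goes by its group and the 6-base tag of its column, and the values of a group's libraries always follow the alphabetical order of these tags (acagtg first, atcacg second, then cgatgt, and tgacca last). The column names also carry a tag of 3 bases that differs between the groups but not within them; what it stands for is not stated, and it cannot be told apart from the delay. Markers of neurons were abundant in both groups, and 10 of them together stood at 6525 to 7344 CPM without delay and 5925 to 6283 CPM at 1 week. The labels count 4 brains per group but do not tie each library to a brain, so p-values measure the spread between these samples, which may in part be technical.

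Nearly all of the interferon response genes that could be tested were higher 1 week after the lesion. Of the 44 genes, 42 passed the filter (at least 1 CPM in at least 4 libraries), and 41 of these were called higher, 0 lower and 1, Adar, not called (limma, Benjamini-Hochberg adjusted p under 0.05 over all 14718 genes tested). Over all genes tested, 23.4% were called higher and 13.4% lower, 36.8% together, and 22.7% had no overlap with higher values at 1 week. A total of 7 genes (Dhx58, Oas1a, Zbp1, Mx1, Ifi203, Ifi204 and Ifi44) were below 1 CPM in every no-delay library and so passed the filter through the 1-week libraries alone; of the other 35, 34 were called higher. The largest log2 fold change was 4.49 for Ifi27l2a (SE 0.41), and the median over the 42 genes was 1.97, beside 0.06 over all genes tested. Without the 7 genes that passed the filter through the 1-week libraries alone, the median was 1.87. All fold changes compare 1 week with no delay after adding 1 CPM, so those of genes with few tags come out too small. A log2 fold change of 1 or more was reached by 36 of the 42, against 6.32% of all genes tested. The 36 include all of these 7 genes, whose passing of the filter required high 1-week values. Of all genes called in either direction, 63.6% were higher, and this share was 52.4% under TMM, 50.9% under median-of-ratios scaling and 43.4% after quantile normalization, where the median of all genes was -0.04 in place of 0.06; the number of interferon response genes called higher was 41, 41 and 38 under these scalings. In 40 of the 44 genes the lowest 1-week value exceeded the highest no-delay value, which held for 20.6% of all rows of the table.

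**Figure D1:**
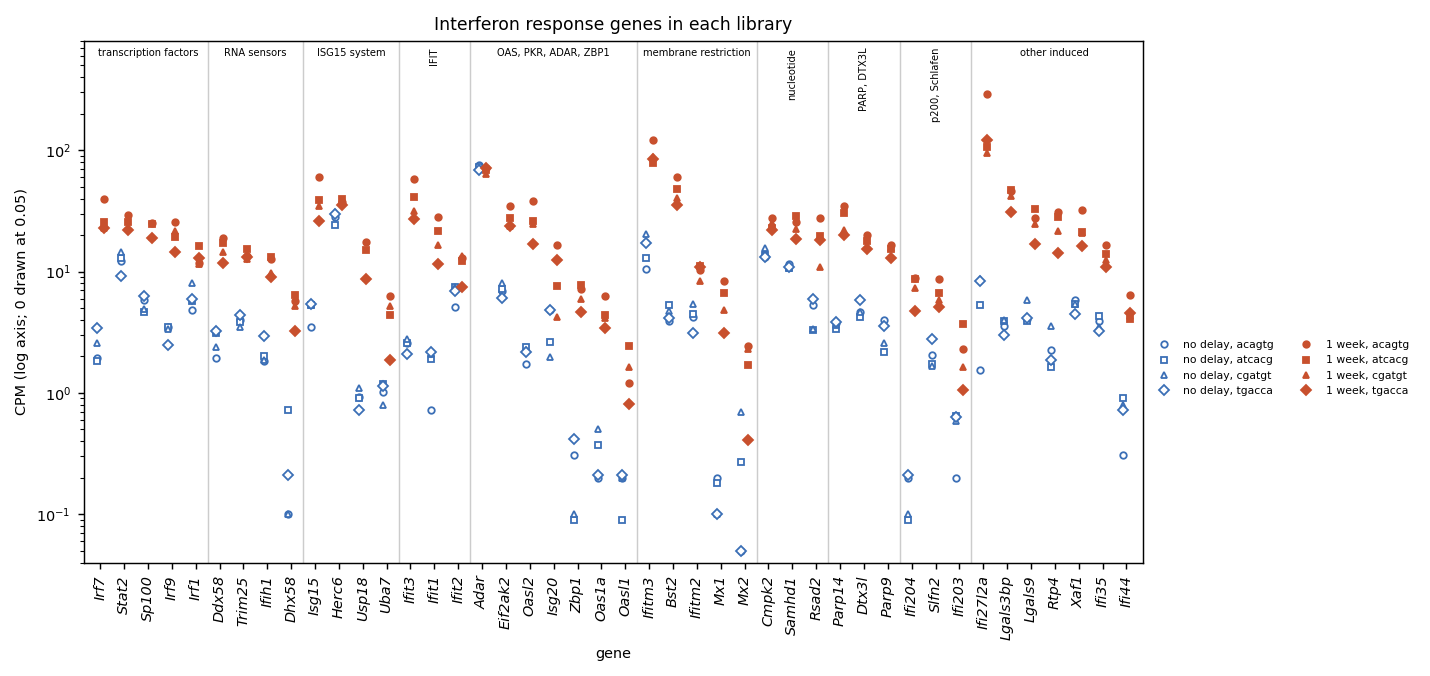
Level of each of the 44 interferon response genes in each of the 8 libraries, as CPM on a log axis, grouped by role; open blue symbols are no-delay and filled red symbols 1-week libraries, and the shape gives the tag. The groups are separate for all genes but Ifit2, Adar, Isg20 and Mx2, and in most genes the filled circle (1-week library acagtg) is the highest.

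Part of these genes share the letters of the response element near their start. RefSeq promoters (250 bases before to 50 after the start, GRCm38) matched 34 of the 44 genes (not Dhx58, Usp18, Zbp1, Mx1, Mx2, Parp9, Parp14, Ifi204, Ifi27l2a and Rtp4), and 14 of these, 41.2%, held the core of the element on either strand (GAAA, any 2 bases, then GAAA again); over the 10988 genes of the table with such a promoter the share was 3.76%, and over all 32851 promoters 3.44%. The longer form, the core followed by CT, was found in 6 of the 34 (17.6%) and in 0.373% of the 10988. The letters of the gamma-activated site, TTCNNNGAA, which is its own reverse complement, were found in 10 of the 34 (29.4%) and in 8.18% of the 10988. The windows printed here are those of the 4 genes with the longer form before the start, and Isg15 and Stat2 for the pathway's ubiquitin-like modifier and its own signal transducer. Each is written 5′ to 3′ along the gene's strand, with the core in capitals; where the element lies on the opposite strand its reverse complement is shown.
Ifit1: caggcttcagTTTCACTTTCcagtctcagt
Ifit3: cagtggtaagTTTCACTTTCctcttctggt
Oas1a: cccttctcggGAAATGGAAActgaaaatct
Bst2: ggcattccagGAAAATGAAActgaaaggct
Isg15: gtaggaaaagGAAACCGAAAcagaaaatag
Stat2: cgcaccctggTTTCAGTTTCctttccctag
On GRCm38 the windows lie at chr19:34640775-34640804 (plus strand, Ifit1), chr19:34583363-34583392 (plus strand, Ifit3), chr5:120907526-120907555 (minus strand, Oas1a), chr8:71537583-71537612 (minus strand, Bst2), chr4:156200871-156200900 (minus strand, Isg15), chr10:128270266-128270295 (plus strand, Stat2). The first capital lies 104, 156, 20, 130, 72 and 222 bases before the start, in the same order. These are matches of letters in a window of another genome build than the mm9 used for the tags, and the table gives no tag positions. A match is not a measured binding site.

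The transcription factors of the pathway and Sp100, grouped with them here, rose, with 5 of 5 called higher. Irf7, the master regulator that amplifies interferon production, stood at 1.95, 1.83, 2.57 and 3.44 CPM without delay and at 39.6, 25.8, 23.1 and 22.9 CPM at 1 week. The groups were far apart, with a log2 fold change of 3.05 (SE 0.19, adjusted p = 2.2e-07). Irf9, the DNA-binding subunit of the complex that holds STAT2, stood at 3.48, 3.47, 3.37 and 2.50 CPM without delay and 25.9, 19.4, 21.8 and 14.4 CPM at 1 week, a log2 fold change of 2.32. Sp100, a component of nuclear bodies, stood at 5.84, 4.66, 4.95 and 6.25 CPM without delay and 25.4, 24.7, 19.1 and 18.9 CPM at 1 week (log2 fold change 1.84). In these 3 genes, library acagtg was the highest of the 1-week group and tgacca the lowest. The others, Stat2 (from 12.2 ± 2.23 to 24.96 ± 3.40 CPM, SD over 4 libraries each) and Irf1 (from 6.16 ± 1.40 to 13.2 ± 2.20 CPM, SD over 4 libraries each), which also responds strongly to interferon gamma, changed by log2 fold changes of 0.98 and 1.00.

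All 4 genes of the cytosolic RNA sensors were called higher, though Dhx58 passed the filter through the 1-week libraries alone. Dhx58, which encodes LGP2, a helper of MDA5, had 0.1, 0.73, 0.1 and 0.21 CPM without delay and 5.68, 6.43, 5.21 and 3.26 CPM at 1 week. The no-delay group held 12 tags of it and the 1-week group 247, 17.3 times as many per tag sequenced (95% counting interval 9.72 to 33.9). Its no-delay mean of 0.285 CPM rested on library atcacg and was 0.137 CPM without it. Ddx58, which encodes RIG-I, the sensor of RNA with 5′ triphosphates, stood at 1.95, 3.11, 2.38 and 3.23 CPM without delay and 18.96, 17.1, 14.6 and 11.7 CPM at 1 week (log2 fold change 2.17, SE 0.17, adjusted p = 1.0e-06). Ifih1, which encodes MDA5, the sensor of long double-stranded RNA, stood at 1.84, 2.01, 1.88 and 2.92 CPM without delay and 12.7, 13.1, 9.72 and 9.04 CPM at 1 week (log2 fold change 1.94). None of the groups of the 3 helicase genes overlapped, and the ratio of mean CPM was 18.1 for Dhx58, 5.85 for Ddx58 and 5.15 for Ifih1. Trim25, a ubiquitin ligase that acts with RIG-I, went from 3.92 ± 0.377 to 13.7 ± 1.13 CPM (SD over 4 libraries each).

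The 4 genes of ISG15 conjugation in the list were called higher in 4 of 4, by unequal amounts; Ube2l6, the E2 enzyme of the same system and not in this list, was not called (adjusted p = 0.0769). Isg15, a ubiquitin-like protein that is attached to other proteins, stood at 3.48, 5.30, 5.35 and 5.42 CPM without delay and 60.6, 38.9, 34.6 and 26.2 CPM at 1 week (log2 fold change 2.75, SE 0.21, adjusted p = 1.1e-06). Usp18, the protease that removes ISG15 and also dampens signalling at the receptor, stood at 0.92, 0.91, 1.09 and 0.73 CPM without delay and 17.6, 15.1, 8.79 and 8.63 CPM at 1 week (log2 fold change 2.76). Uba7, the enzyme that activates ISG15, stood at 1.02, 1.19, 0.79 and 1.15 CPM without delay and 6.28, 4.43, 5.21 and 1.87 CPM at 1 week (log2 fold change 1.34). In each of these, library acagtg was the highest of the 1-week group and tgacca the lowest. Herc6, the mouse ligase that conjugates ISG15, was already abundant and stood at 28.2, 24.1, 31.1 and 29.9 CPM without delay and 37.2, 40.05, 38.4 and 35.6 CPM at 1 week. Its log2 fold change of 0.41 (SE 0.09, adjusted p = 0.00327) was the smallest among the genes called, although the groups did not overlap.

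The IFIT genes, whose proteins bind viral RNA at its 5′ end, were called higher in 3 of 3. Ifit3 stood at 2.56, 2.56, 2.77 and 2.08 CPM without delay and 57.9, 41.5, 31.8 and 27.3 CPM at 1 week (log2 fold change 3.49, SE 0.19, adjusted p = 8.3e-08). Ifit1 stood at 0.72, 1.92, 2.08 and 2.19 CPM without delay and 28.4, 21.4, 16.4 and 11.6 CPM at 1 week (log2 fold change 2.88). Ifit2 was different in size and stood at 5.12, 7.41, 7.52 and 6.88 CPM without delay and 13.1, 12.2, 13.5 and 7.49 CPM at 1 week. Its 1-week library tgacca lay just under the no-delay library cgatgt, so the groups overlapped, and the log2 fold change was 0.68 (SE 0.18, adjusted p = 0.0093). The Ifit2 call was lost with quantile normalization (adjusted p = 0.109). Ifit2 and Ifit3 are neighbours on the chromosome. Ifit3 has a close copy, Ifit3b, and how tags that match both were divided is not stated.

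The next genes serve 2-5A synthesis, binding of double-stranded RNA or Z-form nucleic acid, or, for Isg20, degradation of single-stranded RNA. Of these, 5 of 6 tested were called higher, with Oas1a and Zbp1 passing the filter through the 1-week libraries alone. Oasl2 stood at 1.74, 2.38, 2.28 and 2.19 CPM without delay and 38.4, 26.1, 24.5 and 16.9 CPM at 1 week (log2 fold change 3.07, SE 0.20, adjusted p = 2.7e-07). Zbp1, a sensor of Z-form nucleic acid that can start necroptosis, had 0.31, 0.09, 0.1 and 0.42 CPM without delay and 7.13, 7.76, 6.00 and 4.64 CPM at 1 week, counted as 9 and 305 tags (28.5 times as many per tag sequenced, 95% counting interval 14.8 to 62.9). Oas1a, a synthase of the 2-5A messenger that activates RNase L, had 0.2, 0.37, 0.5 and 0.21 CPM without delay and 6.28, 4.36, 4.14 and 3.42 CPM at 1 week (log2 fold change 2.05). The groups did not overlap in these 3 genes, and no 1-week library fell below 3 CPM in them. Eif2ak2, which encodes the kinase PKR, went from 7.04 ± 0.811 to 27.5 ± 5.23 CPM (SD over 4 libraries each; log2 fold change 1.81). Oasl1, the neighbour of Oasl2, did not pass the filter, with 0.2, 0.09, 0.2 and 0.21 CPM without delay and 1.21, 2.44, 1.64 and 0.81 CPM at 1 week; these are 7 and 76 tags, 9.12 times as many per tag sequenced (95% counting interval 4.22 to 23.4), and its adjusted p was 6.6e-04 when no gene was filtered.

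Adar, which edits adenosines in double-stranded RNA and has both a constitutive and an interferon-induced promoter, was the most abundant gene of this group and the exception to the pattern. It stood at 75.3, 73.2, 70.8 and 68.98 CPM without delay and 70.9, 68.5, 63.7 and 71.1 CPM at 1 week, and the groups overlapped. The log2 fold change was -0.07 with a 95% interval from -0.21 to 0.07 (SE 0.06, adjusted p = 0.407). Since the table holds 1 value per gene, its promoters were not separated here. Isg20, an exonuclease of single-stranded RNA, stood at 4.82, 2.65, 1.98 and 4.79 CPM without delay and 16.7, 7.61, 4.21 and 12.5 CPM at 1 week, and its groups overlapped as well. Its log2 fold change was 1.22 (SE 0.34, adjusted p = 0.0133), and the call was lost with quantile normalization (adjusted p = 0.0687). In the 1-week group its libraries stood in the same order as those of Hbb-b1, the beta-globin gene of red blood cells, which had 4315, 625, 283 and 1972 CPM; this was noticed after the values were seen. Without delay the highest Isg20 value was in library acagtg and the lowest in cgatgt, as for Hbb-b1 (1278, 884, 526 and 887 CPM). The part of blood RNA in the Isg20 value was not tested.

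Of the 5 genes that restrict viral particles at membranes or in the cell, 4 were tested and 4 were called higher. Among them, Mx1 passed the filter through the 1-week libraries alone. Bst2, which encodes tetherin, stood at 3.89, 5.30, 4.75 and 4.17 CPM without delay and 59.8, 47.7, 40.5 and 35.2 CPM at 1 week (log2 fold change 3.06, SE 0.15, adjusted p = 5.7e-08). Ifitm3, which blocks the fusion of virus with endosomes, was abundant, at 10.6, 12.98, 20.3 and 17.2 CPM without delay and 122, 79.1, 88.1 and 85.4 CPM at 1 week (log2 fold change 2.56). Mx1, a dynamin-like GTPase whose gene is defective in most laboratory strains, had 0.2, 0.18, 0.1 and 0.1 CPM without delay and 8.33, 6.65, 4.79 and 3.09 CPM at 1 week. It was counted with 6 tags over the no-delay and 264 over the 1-week libraries, 37.0 times as many per tag sequenced (95% counting interval 16.8 to 102). Mx2 was not tested: it had 0, 0.27, 0.69 and 0 CPM without delay and 2.42, 1.70, 2.29 and 0.41 CPM at 1 week, and library tgacca at 1 week lay below library cgatgt without delay. Its no-delay mean of 0.24 CPM was 0.09 CPM without library cgatgt, and its adjusted p was 0.0102 when no gene was filtered. Ifitm2, close to Ifitm3 on the chromosome and similar in sequence, went from 4.32 ± 0.954 to 10.2 ± 1.29 CPM (SD over 4 libraries each; log2 fold change 1.08).

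The genes of nucleotide metabolism were called higher in 3 of 3. Rsad2, which encodes viperin, an enzyme that makes a chain-terminating nucleotide, stood at 5.33, 3.29, 3.37 and 5.94 CPM without delay and 27.7, 19.7, 10.9 and 18.3 CPM at 1 week (log2 fold change 1.84, SE 0.24, adjusted p = 8.2e-05). Cmpk2, its neighbour in the genome and a mitochondrial nucleotide kinase, was the more abundant of the pair and stood at 13.3, 13.8, 15.5 and 13.2 CPM without delay and 27.4, 22.7, 25.2 and 21.99 CPM at 1 week (log2 fold change 0.76). Samhd1, which degrades deoxynucleotides, stood at 11.6, 10.8, 10.8 and 10.8 CPM without delay and 25.9, 28.6, 22.6 and 18.6 CPM at 1 week (log2 fold change 1.04). None of the 3 genes had overlapping groups.

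The genes for PARP9, PARP14 and DTX3L, neighbours on chromosome 16, were called higher in 3 of 3. Parp14, an ADP-ribosyltransferase, stood at 3.79, 3.38, 3.66 and 3.86 CPM without delay and 34.9, 30.6, 22.1 and 19.9 CPM at 1 week (log2 fold change 2.54, SE 0.16, adjusted p = 2.4e-07). Parp9, the partner of DTX3L, stood at 4.00, 2.19, 2.57 and 3.54 CPM without delay and 16.6, 15.3, 15.7 and 13.03 CPM at 1 week (log2 fold change 2.01). Dtx3l, a ubiquitin ligase, stood at 4.61, 4.21, 4.65 and 5.83 CPM without delay and 19.9, 18.03, 16.2 and 15.5 CPM at 1 week (log2 fold change 1.66). The Parp9 and Dtx3l values were within a narrow range at 1 week, while those of Parp14 ran from 19.9 CPM in library tgacca to 34.9 CPM in acagtg.

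The p200 and Schlafen genes were called higher in 3 of 3, but Ifi203 and Ifi204 passed the filter through the 1-week libraries alone. Ifi204, a DNA-binding p200 protein, had 0.2, 0.09, 0.1 and 0.21 CPM without delay, 6 tags in all, and 8.94, 8.65, 7.36 and 4.72 CPM at 1 week, 352 tags, 49.3 times as many per tag sequenced (95% counting interval 22.4 to 135). Ifi203, another p200 gene, had 0.2, 0.64, 0.59 and 0.63 CPM without delay and 2.30, 3.69, 1.64 and 1.06 CPM at 1 week. Its row held the same tags as Mndal in every library, so it cannot be told from that paralog, and its call (log2 fold change 1.01, adjusted p = 0.00514) was lost with quantile normalization (adjusted p = 0.0857). Slfn2, a Schlafen gene of immune cells, stood at 2.05, 1.74, 1.68 and 2.81 CPM without delay and 8.70, 6.72, 5.79 and 5.13 CPM at 1 week (log2 fold change 1.30).

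The remaining 7 genes were called higher in 7 of 7 and include the highest values. Among them, Ifi44 passed the filter through the 1-week libraries alone. Ifi27l2a, a small membrane protein of unsettled function, stood at 1.54, 5.30, 8.71 and 8.34 CPM without delay and 289, 107, 94.7 and 122 CPM at 1 week. The 1-week library acagtg lay far above the others, and the ratio of means was 25.6 with it and 18.04 without it (log2 fold change 4.49, adjusted p = 4.5e-06). It ranked 5 among all genes tested by log2 fold change. Lgals3bp, a secreted glycoprotein that binds galectins, was more even, at 3.59, 3.93, 3.96 and 3.02 CPM without delay and 46.6, 46.7, 42.1 and 31.3 CPM at 1 week (log2 fold change 3.19, SE 0.14, adjusted p = 2.4e-08). Rtp4, a receptor chaperone induced by interferon, stood at 2.25, 1.65, 3.56 and 1.88 CPM without delay and 30.8, 28.2, 21.8 and 14.2 CPM at 1 week (log2 fold change 2.87). Lgals9, which encodes galectin-9, went from 4.51 ± 0.892 to 25.5 ± 6.61 CPM (SD over 4 libraries each). Xaf1, a pro-apoptotic factor, went from 5.29 ± 0.576 to 22.6 ± 6.70 CPM, Ifi35 from 3.72 ± 0.472 to 13.5 ± 2.41 CPM and Ifi44 from 0.685 ± 0.261 to 4.83 ± 1.07 CPM (SD over 4 libraries each).

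**Figure D2:**
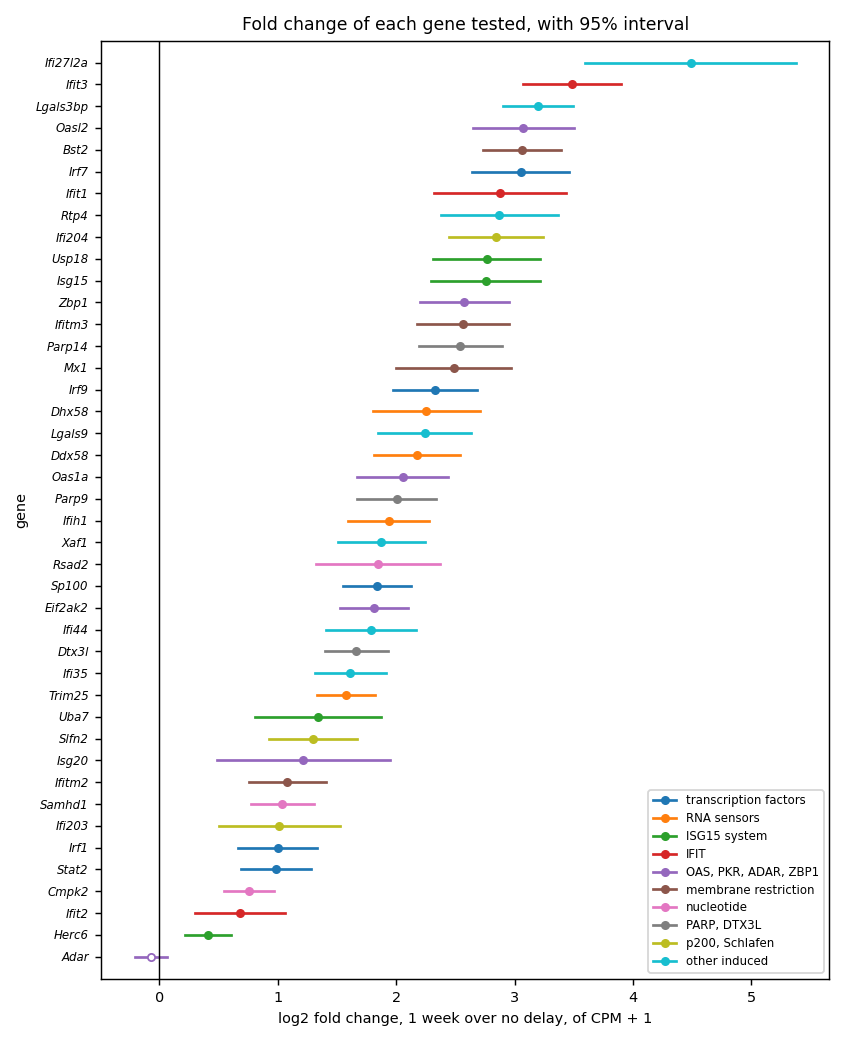
Log2 fold change of CPM + 1 (1 week over no delay) of the 42 genes tested, with its 95% interval from limma, ordered by size and coloured by role; filled points were called higher. Ifi27l2a is at the top with 4.49, and Adar, the open point at the bottom, is the 1 gene whose interval includes 0.

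Within the 1-week group the interferon response genes varied together. Library acagtg was the highest of the 4 in 30 of the 44 genes and atcacg in 12, while tgacca was the lowest in 35. Over all 14718 genes tested, acagtg was the highest in 22.05% and tgacca the lowest in 31.5%. Within the no-delay group no library stood out in this way: cgatgt was the highest in 16 genes, tgacca in 14 and acagtg and atcacg in 7 each. The tissue of library acagtg also had the most red cell signal at 1 week, with 5361 CPM over 5 genes of red blood cells against 786 CPM in library atcacg, 348 CPM in library cgatgt and 2449 CPM in library tgacca. Library tgacca, the lowest in most interferon response genes, was the second highest in these, and their part in the differences was not tested. Leaving acagtg out left 41 of the 42 genes called higher.

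**Figure D3:**
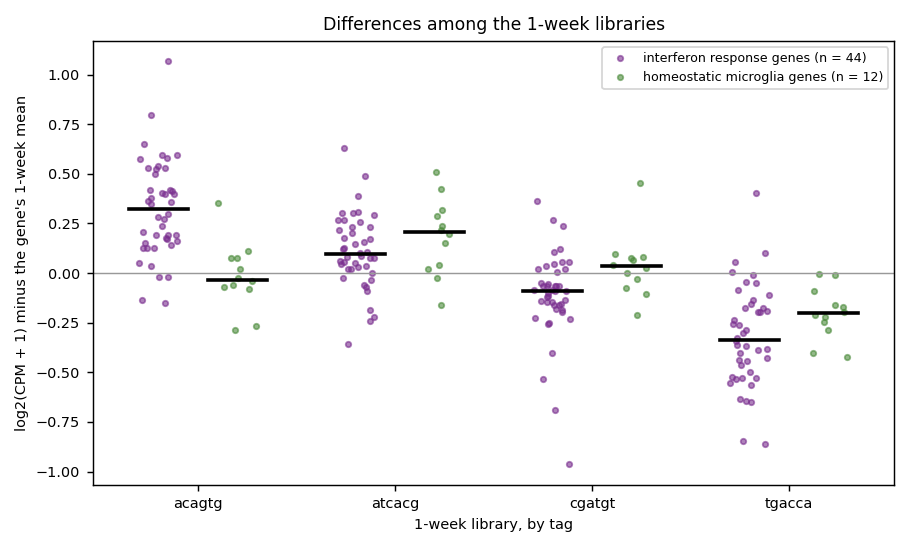
Each point is 1 gene in 1 of the 4 1-week libraries, as log2(CPM + 1) minus the gene's mean over the 1-week libraries, for the 44 interferon response genes and 12 homeostatic microglia genes; black bars are medians. The interferon response genes sit highest in acagtg and lowest in tgacca, and the microglia genes sit highest in atcacg. Library tgacca was also the lowest in 9 of the 12 microglia genes.

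Microglia, which respond to interferon, carried more signal at 1 week too. The 12 homeostatic microglia genes, among them P2ry12, Tmem119 and Csf1r, were called higher in 12 of 12, with a median log2 fold change of 1.63 (1.85 without the 1 gene that passed the filter through the 1-week libraries alone), and their summed level was 524 ± 3.35 CPM without delay and 1807 ± 262 CPM at 1 week (SD over 4 libraries each), 3.45 times as high. In bulk tissue, more cells of a type and more RNA per cell cannot be told apart. The ratio of means exceeded 3.45 in 34 of the 44 interferon response genes (median ratio 5.75) and in 7 of the 12 microglia genes (median ratio 3.76). The summed level of the 44 genes divided by that of the microglia genes was 0.486, 0.490, 0.538 and 0.504 without delay and 0.813, 0.476, 0.516 and 0.545 at 1 week. By this measure the groups overlapped, and the 1-week library acagtg stood apart from the others. With Adar, Herc6 and Ifi27l2a left out, a choice made after their values were seen, the ratio was 0.284, 0.294, 0.327 and 0.301 without delay and 0.583, 0.377, 0.404 and 0.398 at 1 week, and the groups did not overlap. Adar and Herc6 had the lowest ratios of means (0.951 and 1.33), so leaving them out raises the 1-week values against no delay by construction. Leaving out Ifi27l2a (25.6) acts the other way. The separation thus depends on the choice of genes, and no test was made of either ratio. Of markers of the other cells known to respond, 9 of 10 for astrocytes and 8 of 10 for endothelium were called higher, with median log2 fold changes of 0.73 and 0.72, while for neurons 0 of 10 were called higher and 3 lower. Markers of fibroblasts and meninges were called higher in 5 of 7 (median 1.19) and those of oligodendrocytes in 5 of 8 (median 0.64). The part of these cell types in the change of the interferon response genes was not tested. The highest microglia sum was in library atcacg, 2176 CPM, and the lowest in tgacca, 1559 CPM.

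Other gene lists with interferon-induced members moved in the same direction. Of 13 tested guanylate-binding and immunity-related GTPase genes, 11 were called higher, 1 lower (Irgq) and 1 not called, with a median log2 fold change of 1.71; 2 of them passed the filter through the 1-week libraries alone, and of the other 11, 10 were called higher (median 1.83). Of 21 genes of class I antigen presentation, 20 were called higher, 0 lower and 1 was not called (median 1.14); here too 2 passed through the 1-week libraries alone, and of the other 19, 18 were called higher (median 0.90). The library with the highest value at 1 week was acagtg in 11 of the 16 GTPase genes of the table and in 12 of the 21 antigen presentation genes, and in 3 of the 12 microglia genes. Library tgacca was the lowest at 1 week in 11 of these GTPase genes, 19 of the antigen presentation genes and 9 of the microglia genes. No test of a difference between these lists was made.

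Markers of leukocytes other than microglia differed between lists. Of the 14 T and NK cell symbols, 9 had a row, and together they held 0.94 to 2.48 CPM without delay and 0.96 to 2.84 CPM at 1 week. Within this sum, Cd4 went from 0.85 to 0.198 CPM in the mean (34 and 10 tags), while the others had higher means at 1 week. None of the 9 passed the filter. The T cell receptor component Cd3e stood at 0, 0.09, 0.10 and 0.21 CPM without delay and 0.24, 0.15, 0.36 and 0.16 CPM at 1 week. The 6 neutrophil genes held 0.71 to 13.4 CPM without delay and 1.35 to 5.19 CPM at 1 week. The 10 monocyte and macrophage genes of the table held 16.9 to 27.5 CPM without delay and 116 to 322 CPM at 1 week, most of it Lyz2, which phagocytic microglia also express. Of the 5 monocyte and macrophage genes tested, 4 (Lyz2, Ms4a7, F13a1 and Mrc1) were called higher, 0 lower and 1 not called, and Ms4a7, which passed the filter through the 1-week libraries alone, went from 0.64 to 9.71 CPM in the mean. Among the genes not tested, the monocyte receptor gene Ccr2 was between 0 and 0.67 CPM in all 8 libraries (5 tags without delay and 17 at 1 week). Plac8 went from 0.35 to 2.37 CPM in the mean (14 and 102 tags) and Ly6c2 from 0.07 to 0.43 CPM (3 and 20 tags). The groups did not overlap for Plac8 and Ly6c2, and they overlapped for Ccr2, Cd163 and Lyve1. The 6 B cell genes held 24.7 to 33.1 CPM without delay and 39.5 to 57.9 CPM at 1 week, most of it Ighm, and both genes tested, Ighm and Cd79b, were called higher. Of 4 symbols for plasmacytoid dendritic cells, the main interferon producers of blood, 2 had a row; Ly6d stood at 0.46 to 1.13 CPM without delay and 0.89 to 1.33 CPM at 1 week, and Cox6a2 at 18.7 to 26.7 CPM and 28.4 to 38.9 CPM. The part of such cells in the levels of the interferon response genes was not tested.

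Upstream of the response, none of the 21 interferon ligand symbols looked for, among them Ifnb1, Ifng and the Ifna genes, matched a row, and the ligands were not analysed here. Of 7 tested genes for receptors and their kinases, 6 were called higher and 1 lower, with a median log2 fold change of 0.29. Ifnar2, the signalling chain of the type I receptor, stood at 32.8, 27.7, 28.6 and 35.7 CPM without delay and 59.4, 70.7, 58.7 and 63.03 CPM at 1 week (log2 fold change 0.99, SE 0.09, adjusted p = 6.0e-06). Of the same group, the interferon gamma receptor gene Ifngr1 and Il10rb changed by log2 fold changes of 1.31 and 1.13.

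The genes for the other type I receptor chain and for JAK1 differed little between the groups, and Tyk2 had too few tags to judge. Ifnar1 stood at 53.4, 62.00, 63.6 and 66.4 CPM without delay and 65.3, 74.7, 71.1 and 75.00 CPM at 1 week, with overlapping groups and an estimated log2 difference of 0.22 (adjusted p = 0.0459). In 12 of 18 alternatives Ifnar1 was no longer called (the adjusted p ran from 0.0205 to 0.203), including every fit that leaves out 1 library except no-delay tgacca and 1-week acagtg. Without no-delay acagtg its adjusted p was 0.118, without no-delay atcacg 0.0783 and without no-delay cgatgt 0.0609. Without 1-week atcacg it was 0.116, without 1-week cgatgt 0.0892 and without 1-week tgacca 0.0895. Jak1 stood at 108, 100.2, 117 and 111 CPM without delay and 122, 137, 132 and 121 CPM at 1 week (log2 fold change 0.23, adjusted p = 0.0206). Its groups did not overlap. In 7 of 18 alternatives Jak1 was no longer called (the adjusted p ran from 0.0112 to 0.0854), including the fits without no-delay atcacg (adjusted p = 0.0689) or 1-week atcacg or cgatgt (adjusted p = 0.0680 and 0.0614). Jak2, a kinase of the interferon gamma receptor, was called lower, from 30.5 ± 1.12 to 25.8 ± 2.21 CPM (SD over 4 libraries each; adjusted p = 0.0394). The Jak2 call was lost without any one library other than the 1-week library tgacca (adjusted p from 0.0515 to 0.113) and with the 6-base tag as a block (adjusted p = 0.0646). Tyk2, the kinase bound to IFNAR1, was listed at 0 in 6 of the 8 libraries and at most 0.24 CPM. It was not tested, with 0 tags over the no-delay and 3 over the 1-week libraries.

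The genes that sense nucleic acids or signal towards interferon production were mostly higher, with 14 of 16 tested called higher, 1 lower and 1 not called (median log2 fold change 1.35). The myeloid transcription factor gene Irf8 went from 7.74 ± 0.485 to 57.7 ± 9.19 CPM (SD over 4 libraries each; log2 fold change 2.74). Unc93b1, which carries Toll-like receptors to endosomes, went from 9.66 ± 0.852 to 53.5 ± 9.46 CPM, and Tmem173, which encodes STING, from 2.51 ± 0.746 to 12.6 ± 1.93 CPM (SD over 4 libraries each). These 3 genes had the highest log2 fold changes of the list. The ubiquitin ligase gene Traf3 was lower, from 32.1 ± 6.38 to 22.2 ± 0.924 CPM (log2 fold change -0.50, adjusted p = 0.00699). The kinase gene Tbk1, which activates IRF3, stood at 62.3 ± 2.70 and 60.7 ± 3.32 CPM (SD over 4 libraries each; adjusted p = 0.686).

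Negative regulators of the pathway were called higher in 5 of 14 tested, with 0 lower, 9 not called and a median log2 fold change of 0.18. The phosphatase gene Ptpn6, which encodes SHP-1 and is active in blood-derived cells, went from 4.04 ± 0.355 to 31.5 ± 6.75 CPM (SD over 4 libraries each; log2 fold change 2.67). Socs3, an inhibitor of cytokine receptors, went from 1.93 ± 0.499 to 7.47 ± 2.27 CPM, and the DNA exonuclease gene Trex1 from 7.16 ± 0.742 to 12.5 ± 2.55 CPM (SD over 4 libraries each). Ptpn11, which encodes SHP-2, stood at 177 ± 9.16 and 158 ± 10.8 CPM (adjusted p = 0.0715), and was called lower with TMM scaling (adjusted p = 0.0197); it is named because of that change. Of 44 further interferon-stimulated genes tested, 36 were called higher, 0 lower and 8 not called, with a median of 1.38. A total of 11 of them, Gm4951 and Mndal included, passed the filter through the 1-week libraries alone, and of the other 33, 25 were called higher (median 1.02). Mndal, called higher here, holds the same tags as Ifi203, so this measurement is counted in both lists. The 3 with the largest changes were Ifit3b, listed as I830012O16Rik, Ifi30, a thiol reductase of lysosomes, and Gm4951, with log2 fold changes of 3.09, 2.90 and 2.51.

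**Figure D4:**
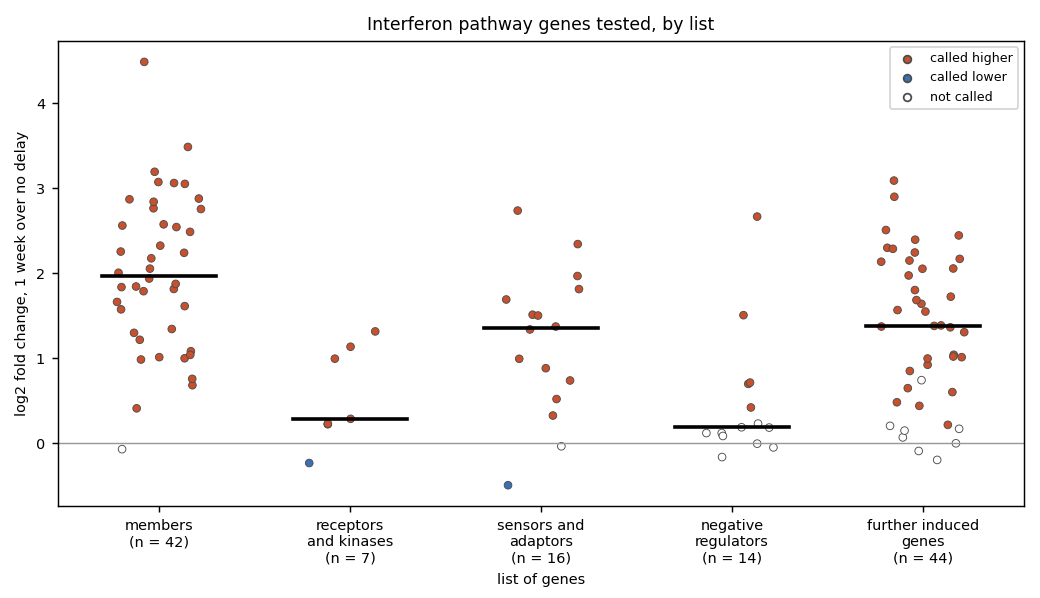
Log2 fold change of CPM + 1 (1 week over no delay) of every gene tested in the interferon response list and in 4 lists of other pathway genes; black bars are list medians and colours give the call. The median is 1.97 for the interferon response genes and 0.18 for the negative regulators.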

How the data were processed

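CAGE libraries of 8 samples were compared, 4 per group. Per the submitters' processing notes, tags were aligned with BWA 0.5.9 to mm9; how tags were assigned to genes is not given in the sources used here. CPM per gene symbol were what the authors deposited. All values came out as whole tags within 0.1 tags, so tag counts were recovered; 3 tags correspond to 0.214 to 0.362 CPM.

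Genes with at least 1 CPM in at least 4 libraries were tested with limma 3.58.1 (R 4.3.3, variance trend, 2-sided, Benjamini-Hochberg over all genes tested) on log2(CPM + 1), which called 5410 of 14718 genes; edgeR 4.0.16 and DESeq2 1.42.0 on the recovered tags called 5490 and 5561. On simulated counts limma recovered 76.3% of genes changed 1.5-fold and 100% of those changed 2-fold or 4-fold. These rates were not split by expression level. They therefore do not give the power for genes with fewer tags, which include many of the interferon response genes. Counting intervals are exact and cover counting error only; tags of PCR-amplified libraries are not independent molecules. How tags that match close copies (among the Ifit, Ifitm, Oas, p200 and Ifi27l2 genes) were divided is not known.

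For each role, values in every library are given for up to 3 genes with the largest change, the most abundant gene, and every gene not called, not tested or overlapping; other pathway lists follow a similar rule. The genes and lists were chosen with earlier results of these data known. A gene of the pathway lists is not reported here and was left out of its list's counts. Alternatives were other pseudocounts, filters, scalings, tests and leaving out each library, and, chosen after seeing the data, the 6-base tag as a block.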

Additional observations from a re-analysis of the deposited data

Results flagged for a closer look

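In 8 of the 88 sets of 4 libraries examined (44 genes in each group), 1 library lay far from the other 3 of its group by Dixon's criterion, which chance alone meets in about 1 in 20 sets. At 1 week this was Ifi27l2a, with 289 CPM in library acagtg against 94.7 to 122 CPM in the others. Without delay, library acagtg was low for Isg15 (3.48 CPM) and Ifi203 (0.20 CPM) and high for Samhd1 (11.6 CPM). Library tgacca was low for Irf9 (2.50 CPM) and high for Ifih1 (2.92 CPM). Library atcacg was low for Oasl1 (0.09 CPM, 1 tag) and library cgatgt high for Lgals9 (5.84 CPM). None of the 7 sets without delay overlapped with its 1-week libraries.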

How the results depend on the processing

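The number of interferon response genes called higher was 41, and 43 with no filter, 32 with a filter of 5 CPM (fewer genes tested), 38 with quantile normalization and 41 in every other alternative. No direction reversed in any alternative. Their median log2 fold change was 2.33 with a pseudocount of 0.25, 1.22 with 5, 1.62 with quantile normalization, 2.37 with edgeR and 2.36 with DESeq2. For the GTPase genes the median was 2.09 with a pseudocount of 0.25, 0.92 with 5, 1.29 with no filter, 2.08 with the 5 CPM filter (7 called higher), 2.16 with edgeR and 2.17 with DESeq2. For the antigen presentation genes it was 0.78 with a pseudocount of 5, 0.90 with the 5 CPM filter and 0.84 with quantile normalization. For the microglia genes it was 1.89 with a pseudocount of 0.25, 1.37 with 5, 1.85 with the 5 CPM filter, 1.85 with edgeR and 1.84 with DESeq2. A log2 ratio on a larger pseudocount is smaller by construction; the cause of the other shifts was not tested. With the 5 CPM filter, 3 negative regulators and 20 further interferon-stimulated genes were called higher. Of the negative regulators 1, Ptpn11, was called lower with TMM scaling, median-of-ratios scaling, edgeR and DESeq2. With each library left out, the number called lower ran from 0 to 1 for the receptors and kinases (Jak2), 0 to 1 for the negative regulators (1 without 1-week tgacca, Ptpn11) and 0 to 1 for the further genes (1 without no-delay tgacca, Tdrd7). The longer response element was found in 17.6% of the 34 interferon response genes with a promoter and in 0.373% of the 10988 genes of the table with one. No paired analysis was possible because the columns carry no replicate numbers of the labels. The 6-base tags recur in both groups, but nothing says that they pair samples; a fit with the tag as a block, chosen after seeing the data, called 41 interferon response genes higher and 0 of the receptors and kinases lower. Genes under about 1 CPM without delay rest on few tags, and their fitted changes are understated.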

Other observations

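The row Ifi27l1, whose name RefSeq gives with Ifi27 as a synonym, was not counted among the interferon response genes. It stood at 14.96, 15.9, 16.1 and 8.02 CPM without delay and 57.4, 53.7, 47.9 and 36 CPM at 1 week, and its log2 fold change was 1.78 (limma, SE 0.20, adjusted p = 2.3e-05). Ube2l6, the E2 enzyme that passes on ISG15, was not called (adjusted p = 0.0769; called higher with the 6-base tag as a block, adjusted p = 0.0206) and stood at 10.2, 5.94, 5.84 and 5 CPM without delay and 20.7, 10.5, 5.57 and 14.3 CPM at 1 week. Its 1-week libraries stood in the same order as those of Isg20 and Hbb-b1; this was noticed after the values were seen. A few related genes had a 1-week mean that rested on library acagtg: Gbp8 stood at 1.56 CPM with it and 0.837 CPM without it, Sp110 at 3.06 and 1.90 CPM, and H2-Q6 at 10.9 and 7.23 CPM.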
